A study of Mus musculus with 3 samples.

Results

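Matrix metalloproteinases (MMPs) and their tissue inhibitors (TIMPs) were examined in melan-a cells, an immortalized line of mouse melanocytes. The set consists of 10 genes chosen by their mouse symbols, namely the 4 TIMP genes *Timp1* to *Timp4* and the 6 MMP genes *Mmp2*, *Mmp9*, *Mmp14*, *Mmp15*, *Mmp16* and *Mmp17*, out of 22698 Ensembl genes with a value in each sample. RNA-seq was performed on 3 replicates, labelled 1, 3 and 4, which the series design calls bioreplicates and which form a single group, so that no condition was compared with another. All 3 came from Ink4a-ARF-/- cells on a C57BL/6J background, without a further treatment, grown in medium with 10% fetal bovine serum, 200 nM of the phorbol ester 12-O-tetradecanoylphorbol 13-acetate and 200 pM cholera toxin. As a single line in culture, these cells lack the keratinocytes and fibroblasts that surround melanocytes in skin.

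MMPs are zinc-dependent proteases that cut collagens and other proteins of the extracellular matrix, and most are made as inactive precursors whose propeptide has to be removed. TIMPs block the active enzymes by binding in their catalytic site. Some MMPs are secreted, such as the gelatinases MMP2 and MMP9, whereas the membrane-type enzymes stay at the cell surface, through a transmembrane segment in MMP14, MMP15 and MMP16 and through a lipid anchor in MMP17. A well-known case in which an inhibitor also takes part in activation is the complex of MMP14, TIMP2 and the precursor of MMP2 at the cell surface, in which a further MMP14 molecule cuts the bound precursor. In skin, melanocytes sit on a basement membrane rich in type IV collagen, a substrate of the gelatinases.

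Values are FPKM, i.e., reads relative to the length of the gene and the size of the library, so that levels may be compared between genes, as far as the length assigned to each gene holds. The size of each library was rebuilt from genes with a single annotated transcript, whose values correspond to whole numbers of reads. It came to 53900000, 46900000 and 66500000 reads in replicates 1, 3 and 4. Because the deposited values were scaled between libraries (trimmed mean of M values, TMM), these may be scaled sizes and need not equal the number of reads sequenced. A gene was called detected at 3 or more reads. Of the 22324 genes with an annotated length, 57.7% were detected in every replicate, and 31.4% of all 22698 genes were at 0 in all 3, which is the background for the counts of detected genes given here. The label of the cells was checked against marker genes. All 8 melanocyte markers were above 22 FPKM on average, led by *Tyrp1* (3144 FPKM), and their values summed to between 5779 and 6617 FPKM per replicate. Of 22 markers of fibroblasts, keratinocytes, endothelial cells and leukocytes, 1 (*Col1a1*) reached 1 FPKM in every replicate, as did 44.1% of all genes. By the limit of 3 reads, 5 of 7 fibroblast, 1 of 6 keratinocyte, 0 of 4 endothelial and 1 of 5 leukocyte markers were detected in every replicate. *Cdkn2a*, the gene encoding Ink4a and ARF, had 19.24, 16.49 and 24.32 FPKM. A value per gene does not show which exons carried these reads, and it therefore does not check the genotype.

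Of the 10 genes, 6 were abundant and ranked among the highest 1000 of the 22698 genes, and 7 were at 1 FPKM or above in every replicate, where 44.1% of all genes were. In order of mean level, the abundant genes were *Timp2*, *Mmp14*, *Mmp2*, *Timp3*, *Mmp15* and *Timp1*. *Mmp17* followed at a far lower level, *Mmp9* and *Mmp16* were close to the limit of detection, and *Timp4* was listed at 0. The plot of levels by replicate shows this division into 6 abundant genes, 1 gene of low level and 3 genes at or near 0.

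**Figure D1:**
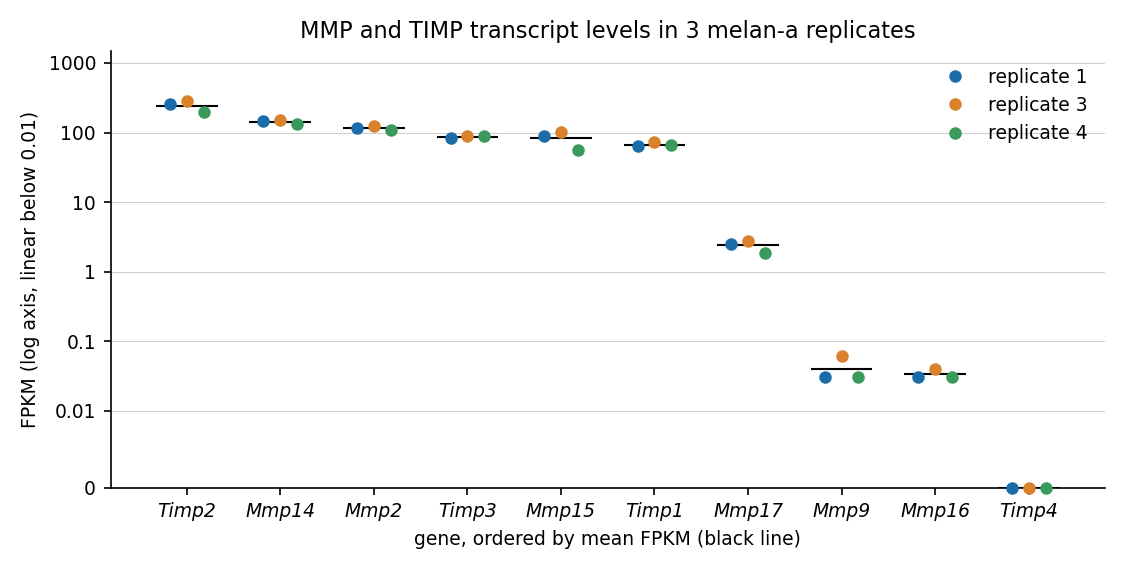
FPKM of the 10 genes in replicates 1, 3 and 4 (points) with the mean (black line), on a log axis that is linear below 0.01. The 6 leftmost genes lie between 56.34 and 279.78 FPKM in every replicate, *Mmp17* between 1.86 and 2.78, and *Mmp9* and *Mmp16* at 0.06 or below.

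Among the inhibitors, *Timp2*, which encodes the TIMP of the MMP2 activation complex, had the highest level of the whole set. It reached 254.48, 279.78 and 199.04 FPKM in replicates 1, 3 and 4 (mean 244.4 ± 41.3, SD, n = 3), which gave rank 196 of all genes. Replicate 4 was the lowest, but even there *Timp2* stood above every other gene of the set. *Timp3* encodes an inhibitor that binds to the extracellular matrix and also blocks ADAM proteases such as ADAM17. Its level was 83.76, 89.15 and 88.17 FPKM in replicates 1, 3 and 4 (mean 87.0 ± 2.9, SD, n = 3). Of the 7 genes at or above 1 FPKM, *Timp3* had the lowest coefficient of variation (CV) in the deposited values, 3.3%, but not after the correction for GC content described further on. *Timp1* encodes an inhibitor that acts poorly on several membrane-type MMPs, and it had 64.54, 72.06 and 65.07 FPKM (mean 67.2 ± 4.2, SD, n = 3). *Timp4*, known mainly from heart, was at 0 in all 3 replicates. For a gene of its length, the limit of 3 reads corresponds to 0.0393, 0.0452 and 0.0319 FPKM in replicates 1, 3 and 4. The exact 95% Poisson upper limits for a count of 0 were 0.0483, 0.0555 and 0.0392 FPKM. Intervals and limits of this kind cover counting error only.

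Of the secreted enzymes, *Mmp2* was abundant and *Mmp9* was barely detected, although their proteins are both gelatinases. *Mmp2* had 118.03, 125.95 and 109.92 FPKM in replicates 1, 3 and 4 (mean 118.0 ± 8.0, SD, n = 3), at rank 471. *Mmp9* had 0.03, 0.06 and 0.03 FPKM, which corresponds to about 6, 10 and 7 reads. The exact 95% Poisson intervals of these reads were 2.2 to 13.1, 4.8 to 18.4 and 2.8 to 14.4, so that the higher value in replicate 3 was not separated from the others at this depth. Rounding of the deposited values to 2 decimals adds an uncertainty of up to 1.2 reads. In bulk RNA, few cells with *Mmp9* transcripts and little *Mmp9* RNA in each cell cannot be told apart, and this holds for every gene described here.

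Of the membrane-type enzymes, *Mmp14*, which encodes the activator of pro-MMP2, was the highest protease transcript. It had 147.77, 152.96 and 130.70 FPKM (mean 143.8 ± 11.6, SD, n = 3), at rank 370. *Mmp15*, which encodes a related transmembrane enzyme, had 88.80 FPKM in replicate 1 and 101.80 in replicate 3 but 56.34 in replicate 4 (mean 82.3 ± 23.4, SD, n = 3). With a CV of 28.4%, *Mmp15* varied more between replicates than 92.6% of the 10237 genes with a mean of at least 1 FPKM, and replicate 4 stood apart from the other 2. *Mmp17*, which encodes the lipid-anchored member, had 2.47, 2.78 and 1.86 FPKM (mean 2.4 ± 0.5, SD, n = 3). *Mmp16*, which encodes the third transmembrane member of the set, had 0.03, 0.04 and 0.03 FPKM, or about 14, 16 and 17 reads. These reads were above the limit of 3 in each replicate, and the exact 95% Poisson intervals (7.7 to 23.5, 9.1 to 26.0 and 9.9 to 27.2 reads) overlapped.

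The order of the levels was the same in every replicate for 6 of the 9 neighbouring pairs. *Timp2* exceeded *Mmp14* in 3 of 3 replicates, by a factor of 1.69 (mean log2 difference 0.75, SD 0.13), *Mmp14* exceeded *Mmp2* by 1.22 (0.28, SD 0.04) and *Mmp2* exceeded *Timp3* by 1.35 (0.44, SD 0.10). The place of *Timp3* depends on its length, since with the length of its longest protein-coding transcript it stood above *Mmp2* in 3 of 3 replicates, and its mean (150.1 FPKM) was also above that of *Mmp14*. *Timp3* was above *Mmp15* in only 1 of 3 replicates (mean log2 difference 0.12, SD 0.46) and *Mmp15* was above *Timp1* in 2 of 3 (0.25, SD 0.40), hence these neighbours did not differ beyond their spread. Below them came a wide gap, since *Timp1* exceeded *Mmp17* by a factor of 28.7 and *Mmp17* exceeded *Mmp9* by 61.8, both in 3 of 3 replicates. *Mmp9* and *Mmp16* had the same deposited value, rounded to 2 decimals, in replicates 1 and 4, although it corresponds to about 6 and 7 reads of *Mmp9* and about 14 and 17 reads of *Mmp16*.

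To compare proteases with inhibitors, levels were summed within each replicate. The 4 TIMP genes summed to 402.78, 440.99 and 352.28 FPKM in replicates 1, 3 and 4, and the 6 MMP genes to 357.13, 383.59 and 298.88 FPKM. Inhibitor transcripts thus exceeded protease transcripts slightly in each replicate, with ratios of 1.13, 1.15 and 1.18 (geometric mean 1.15, mean log2 ratio 0.20, SD 0.03, n = 3). An exact sign-flip permutation test of the log2 ratio gave p = 0.25 (two-sided), the smallest value that 3 replicates allow. The same value was obtained for all 5 ratios described here, which point the same way in 3 of 3 replicates. At this limit the test cannot decide on any of them, and the ratios share genes and are not independent. The sums rest on few genes. *Timp2* made up 61.0 ± 3.9% of the TIMP sum, *Timp3* 22.0 ± 2.6% and *Timp1* 16.9 ± 1.3% (SD, n = 3). *Mmp14* made up 41.7 ± 1.9% of the MMP sum, *Mmp2* 34.2 ± 2.2% and *Mmp15* 23.4 ± 4.0%. Without the highest gene of each family, *Timp2* and *Mmp14*, the ratio turned to 0.77, with more protease than inhibitor transcripts. Transcript sums do not give the amounts of active enzyme and free inhibitor.

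**Figure D2:**
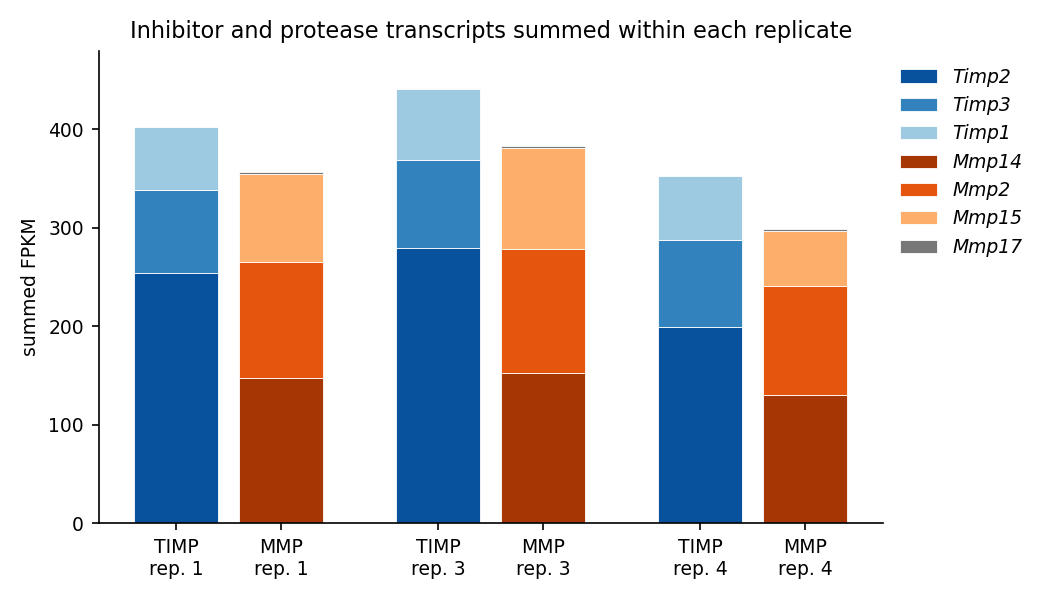
Summed FPKM of the TIMP and of the MMP genes in each replicate (rep.), as stacked bars with a segment for each gene. The TIMP bar is the taller in each of the 3 replicates, *Timp2* is its largest segment, and *Mmp9*, *Mmp16* and *Timp4* are too low to be drawn.

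Genes of the MMP2 activation complex were then set side by side. All 3 were abundant, in the order *Timp2*, *Mmp14*, *Mmp2* in each replicate. The ratio of *Timp2* to *Mmp14* was 1.72, 1.83 and 1.52 in replicates 1, 3 and 4. The ratio of *Timp2* to *Mmp2* was 2.16, 2.22 and 1.81 (geometric mean 2.05, mean log2 ratio 1.04, SD 0.16, n = 3). The ratio of *Mmp14* to *Mmp2* was the most even of the 3, at 1.25, 1.21 and 1.19. The plot of ratios shows that those with *Timp2* as the numerator were lowest in replicate 4.

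**Figure D3:**
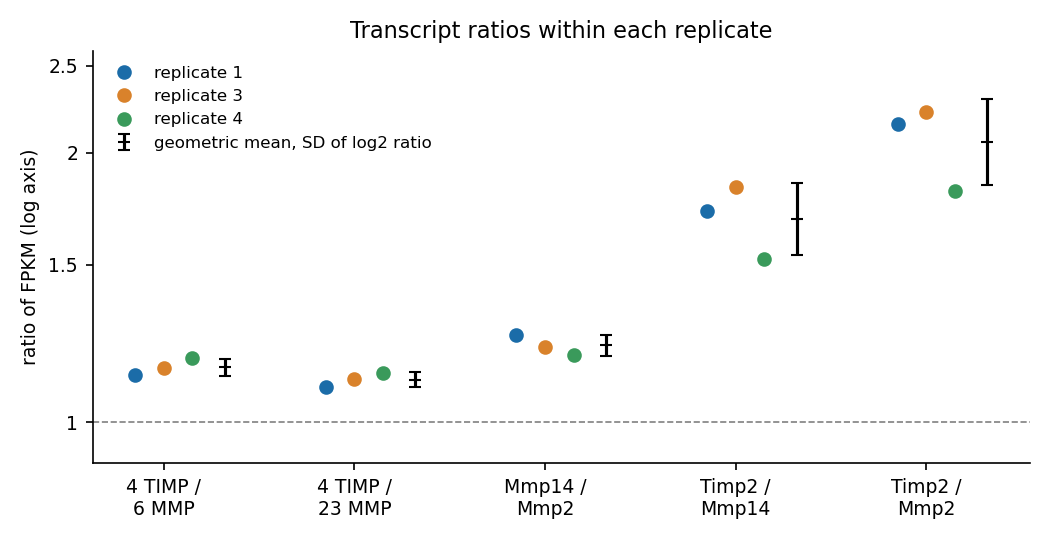
Ratios of FPKM within each replicate (points), with the geometric mean and the SD of the log2 ratio (bars), on a log axis. All 15 points lie above the dashed line at 1, from 1.09 for the 4 TIMP genes over 23 MMP genes in replicate 1 to 2.22 for *Timp2* over *Mmp2* in replicate 3.

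The positions of these genes in mm9 bear on how far their values can be trusted. *Timp1* (chrX:20447292-20451861, plus strand), *Timp3* (chr10:85763117-85812251, plus strand) and *Timp4* (chr6:115195634-115201867, minus strand) each lie within a synapsin gene on the opposite strand, *Syn1*, *Syn3* and *Syn2*. Synapsins are proteins of synaptic vesicles. Their genes were at 0.11 FPKM or below in every replicate. Exons of *Syn3* cover 1733 bases, or 21.3%, of the joined exons of *Timp3*. The strand setting used for counting is not given in the sources used here, so that reads in this stretch cannot be assigned with certainty. The exons of *Timp1* and *Timp4* share no bases with *Syn1* and *Syn2*. *Timp2* (chr11:118162383-118217054, minus strand) contains the gene *BC100451* on its own strand without shared exon bases, at 0.74, 0.79 and 0.59 FPKM. *Mmp14* (chr14:55050441-55060095) and *Mmp2* (chr8:95351227-95377316), both on the plus strand, each have a single annotated transcript and share no exon bases with another gene. *Mmp15* lies on the plus strand at chr8:97876168-97898193, *Mmp9* at chr2:164766280-164781350, *Mmp16* at chr4:17780040-18046292 and *Mmp17* at chr5:130090089-130114086, all on the plus strand. *Mmp17* shares 16 exon bases with *AC114657.1*, an annotated miRNA gene. The choice of length bears on *Timp3*, whose joined exons span 8144 bases but whose longest protein-coding transcript has 4722, and alike on *Mmp16*, with 8667 and 5011 bases. With the latter length *Mmp16* would have a mean of 0.058 FPKM, above that of *Mmp9*.

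Sequences upstream of the genes were inspected because the set divides into abundant genes and *Timp4*, which is at 0. Windows of 300 bases around the transcription start, from 250 bases before to 50 after it, were available in RefSeq (GRCm38.p6) for 6 genes, *Timp1*, *Timp2*, *Timp3*, *Timp4*, *Mmp14* and *Mmp15*. The GC box, GGGCGG on either strand, which is bound by SP1-type factors, occurred in all 5 windows of abundant genes (2 each at *Timp3* and *Mmp14*) and not in that of *Timp4*. It was found in 35.7% of all 32851 windows of this length, and its share among windows of like GC content was not counted. The contrast rests on *Timp4* alone, because no window was available for the abundant *Mmp2* or for *Mmp9*, *Mmp16* and *Mmp17*. The stretch of 30 bases around the first GC box is given here for each gene, with GC boxes in capitals (CCGCCC where the box is on the other strand), together with the last 30 bases before the start of *Timp4*, each written 5′ to 3′ on the strand of the gene.
Timp1, chrX:20870146-20870175, plus strand: ttatcctggggcCCGCCCctaggctttgac
Timp2, chr11:118355431-118355460, minus strand: ctggggagggctGGGCGGcgcggcgcggga
Timp3, chr10:86300385-86300414, plus strand: tccgggccggctCCGCCCtgtcgccccgcg
Mmp14, chr14:54431567-54431596, plus strand: aggagggcattgGGGCGGGGGCGGaggaga
Mmp15, chr8:95352178-95352207, plus strand: tcgggttaggtcCCGCCCccagcctccgcc
Timp4, chr6:115252206-115252235, minus strand: actgtctcttttgcctgttgtaattctgtc
The 2 GC boxes of *Mmp14* directly follow each other, and they begin 19 and 13 bases before the start. The windows of *Timp2*, *Timp3* and *Mmp15* held 25, 24 and 22 CG dinucleotides, those of *Mmp14* and *Timp1* held 10 and 8, and that of *Timp4* held 2, against a median of 7 over all windows. None of the 6 windows held the AP-1 site TGANTCA, through which phorbol esters are known to act (7.81% of all windows), the E-box CACGTG (7.15%), the core CATGTG of the M-box bound by MITF (14.2%), the palindromic TFAP2 site GCCNNNGGC (16.6%) or the TATA box TATAAA (13.6%), each searched on both strands. The shorter consensus of TFAP2, GCCNNNGG on either strand, which also counts every match of the palindromic form and was added after the data were seen, occurred at *Timp3* (4 matches), *Timp1* (3), *Mmp15* (2) and *Timp4* (1) and not at *Timp2* or *Mmp14*, against 54.8% of all windows. These counts describe letters within the windows and not the binding of a factor. With 6 windows and such shares, the absence of a site carries little weight. Among coat color genes, the paper lists *TIMP3* as associated with overlapping TFAP2A and MITF peaks at active elements in melanocytes. Its peaks were assigned to genes over distances well beyond these windows.

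The spread between replicates was set beside the GC content of the transcripts. Over 10006 genes with at least 1 FPKM in every replicate, the log2 ratio of replicates 3 and 4 followed the GC content of the longest protein-coding transcript (Spearman's rho 0.78 across genes, which share these libraries and are not independent). Of the 7 genes of the set at this level, 6 were above the median GC content of 50.5%. *Mmp15*, with the highest GC content at 61.1%, had the largest log2 ratio of replicate 3 over 4, 0.85. *Mmp17* (59.6%) followed with 0.58 and *Timp2* (53.7%) with 0.49. *Mmp14* (55.4%) and *Mmp2* (55.2%) had a higher GC content than *Timp2* but lower log2 ratios, 0.23 and 0.20. *Timp3*, with the lowest GC content of the 7 at 46.8%, had a log2 ratio of 0.02.

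**Figure D4:**
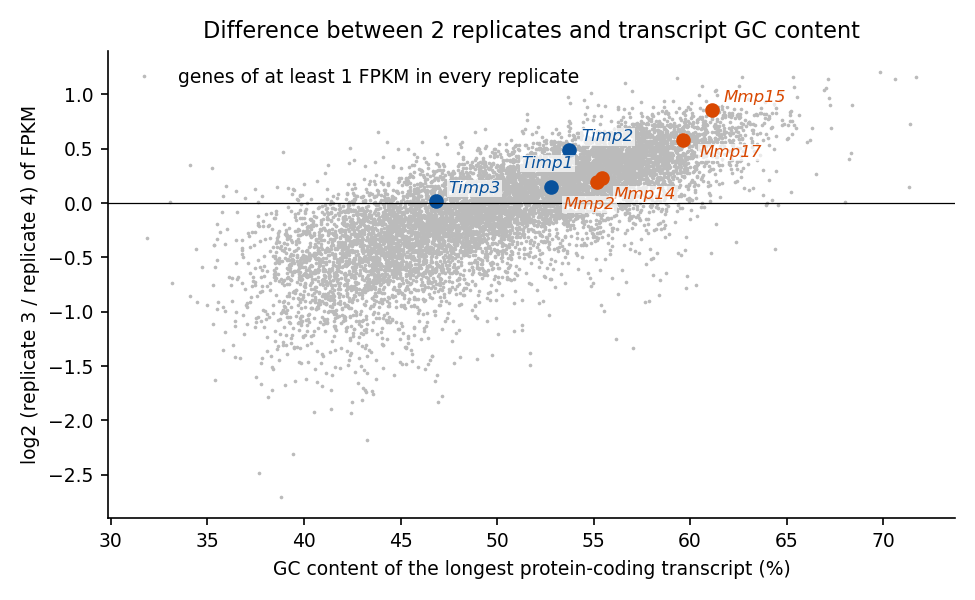
Log2 ratio of FPKM between replicates 3 and 4 against the GC content of the longest protein-coding transcript (%), for 10006 genes (grey), TIMP genes (blue) and MMP genes (orange). The 7 labelled genes lie within the cloud of all genes, from *Timp3* at 46.8% GC to *Mmp15* at 61.1% GC.

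After each replicate was corrected for the median deviation of genes of like GC content, the CV of *Mmp15* was 10.3% and that of *Timp2* was 10.0%, compared with 28.4% and 16.9% before. The CV of *Timp3* went from 3.3% to 8.1%, above those of *Mmp2* (2.4%), *Timp1* and *Mmp14* (both 3.3%) and *Mmp17* (5.2%). The order of the means, which the correction leaves nearly unchanged by design, stayed as it was. Within replicates, *Mmp15* was then above *Timp1* in 3 of 3 (mean log2 difference 0.25, SD 0.18) and *Timp3* above *Mmp15* in 2 of 3 (0.12, SD 0.12). The ratio of the TIMP sum to the MMP sum became 1.14, 1.24 and 1.08 in replicates 1, 3 and 4, so that its SD on the log2 scale was 0.10 in place of 0.03, and it stayed above 1 in 3 of 3 replicates. The highest of the 3 ratios then belonged to replicate 3, not replicate 4.

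The other MMP genes contributed little. Of 17 further MMP genes, 5 (29.4%) were detected in every replicate, against 57.7% of all genes, and 6 (35.3%) were at 0 in all, close to the 31.4% of all genes. The highest was *Mmp19*, which encodes a secreted enzyme, with 9.05, 9.22 and 9.15 FPKM. It was followed by *Mmp28* (mean 0.83 FPKM), *Mmp11* (0.82), *Mmp23* (0.27) and *Mmp10* (0.15). *Mmp14*, *Mmp2* and *Mmp15* together made up 96.1 ± 0.3% (SD, n = 3) of the sum over all 23 MMP genes, of which 11 (47.8%) were detected in every replicate. With all 23 as the denominator, the ratio of the TIMP sum to the MMP sum was 1.09, 1.12 and 1.14.

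Among genes that activate or restrain MMPs, 7 of 12 were detected in every replicate, a share (58.3%) near that of all genes (57.7%). *Spock2* was not counted, since its rounded value of 0.01 FPKM in replicate 1 was just below the limit of 0.0101. *Bsg*, which encodes basigin, a surface protein known as an inducer of MMPs, was the highest with 716.83, 852.72 and 620.05 FPKM, above all 10 genes of the set. *Pcsk6* (mean 34.3 ± 7.2 FPKM) and *Furin* (28.1 ± 7.9 FPKM) encode proprotein convertases, the latter of which removes the propeptide of membrane-type MMPs, and *Pcsk7* (6.8 ± 0.2 FPKM) is a related gene. *Reck* encodes a membrane-anchored inhibitor of MMPs and had 4.30, 4.01 and 5.09 FPKM, below *Timp1* in every replicate.

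TIMPs also act on the ADAM and ADAMTS proteases, and these lists were described for comparison. Of 9 ADAM genes, 7 (77.8%) were detected in every replicate, against 57.7% of all genes. *Adam10*, which encodes a major surface sheddase, had 120.79, 97.12 and 142.91 FPKM, and *Adam9* (mean 66.9 ± 12.8 FPKM), *Adam12* (27.9 ± 2.0 FPKM), *Adam15* (26.4 ± 5.6 FPKM) and *Adam17* (12.1 ± 1.9 FPKM) followed. Of these 5, *Adam10*, *Adam9*, *Adam12* and *Adam17* were lowest in replicate 3, whereas *Adam15* was highest there. Of 19 ADAMTS genes, 10 (52.6%) were detected in every replicate, near the share of all genes, and *Adamts1*, which encodes a protease of proteoglycans, stood out with 221.96, 213.79 and 215.75 FPKM. The next, *Adamts5*, had 19.1 ± 1.0 FPKM, and *Adamts14* (7.7 ± 1.8), *Adamts4* (4.3 ± 0.3) and *Adamts10* (2.6 ± 0.1) were lower still. In the plasminogen system, whose protease plasmin can activate MMP precursors, 4 of 6 genes (66.7%) were detected in every replicate, against 57.7% of all genes. *Plg*, which encodes plasminogen itself, was at 0 in all 3 replicates. *Serpine2*, which encodes a protease inhibitor, had 148.9 ± 6.0 FPKM, *Plat*, the tissue-type activator, 47.8 ± 3.1 FPKM and *Plaur*, the receptor of the urokinase-type activator, 14.8 ± 2.0 FPKM. *Plau*, the urokinase-type activator itself, was at 0.55 ± 0.16 FPKM, and *Serpinf2*, which encodes an inhibitor of plasmin, had 0.04, 0.01 and 0.05 FPKM (values with ± are means and SD, n = 3).

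**Figure D5:**
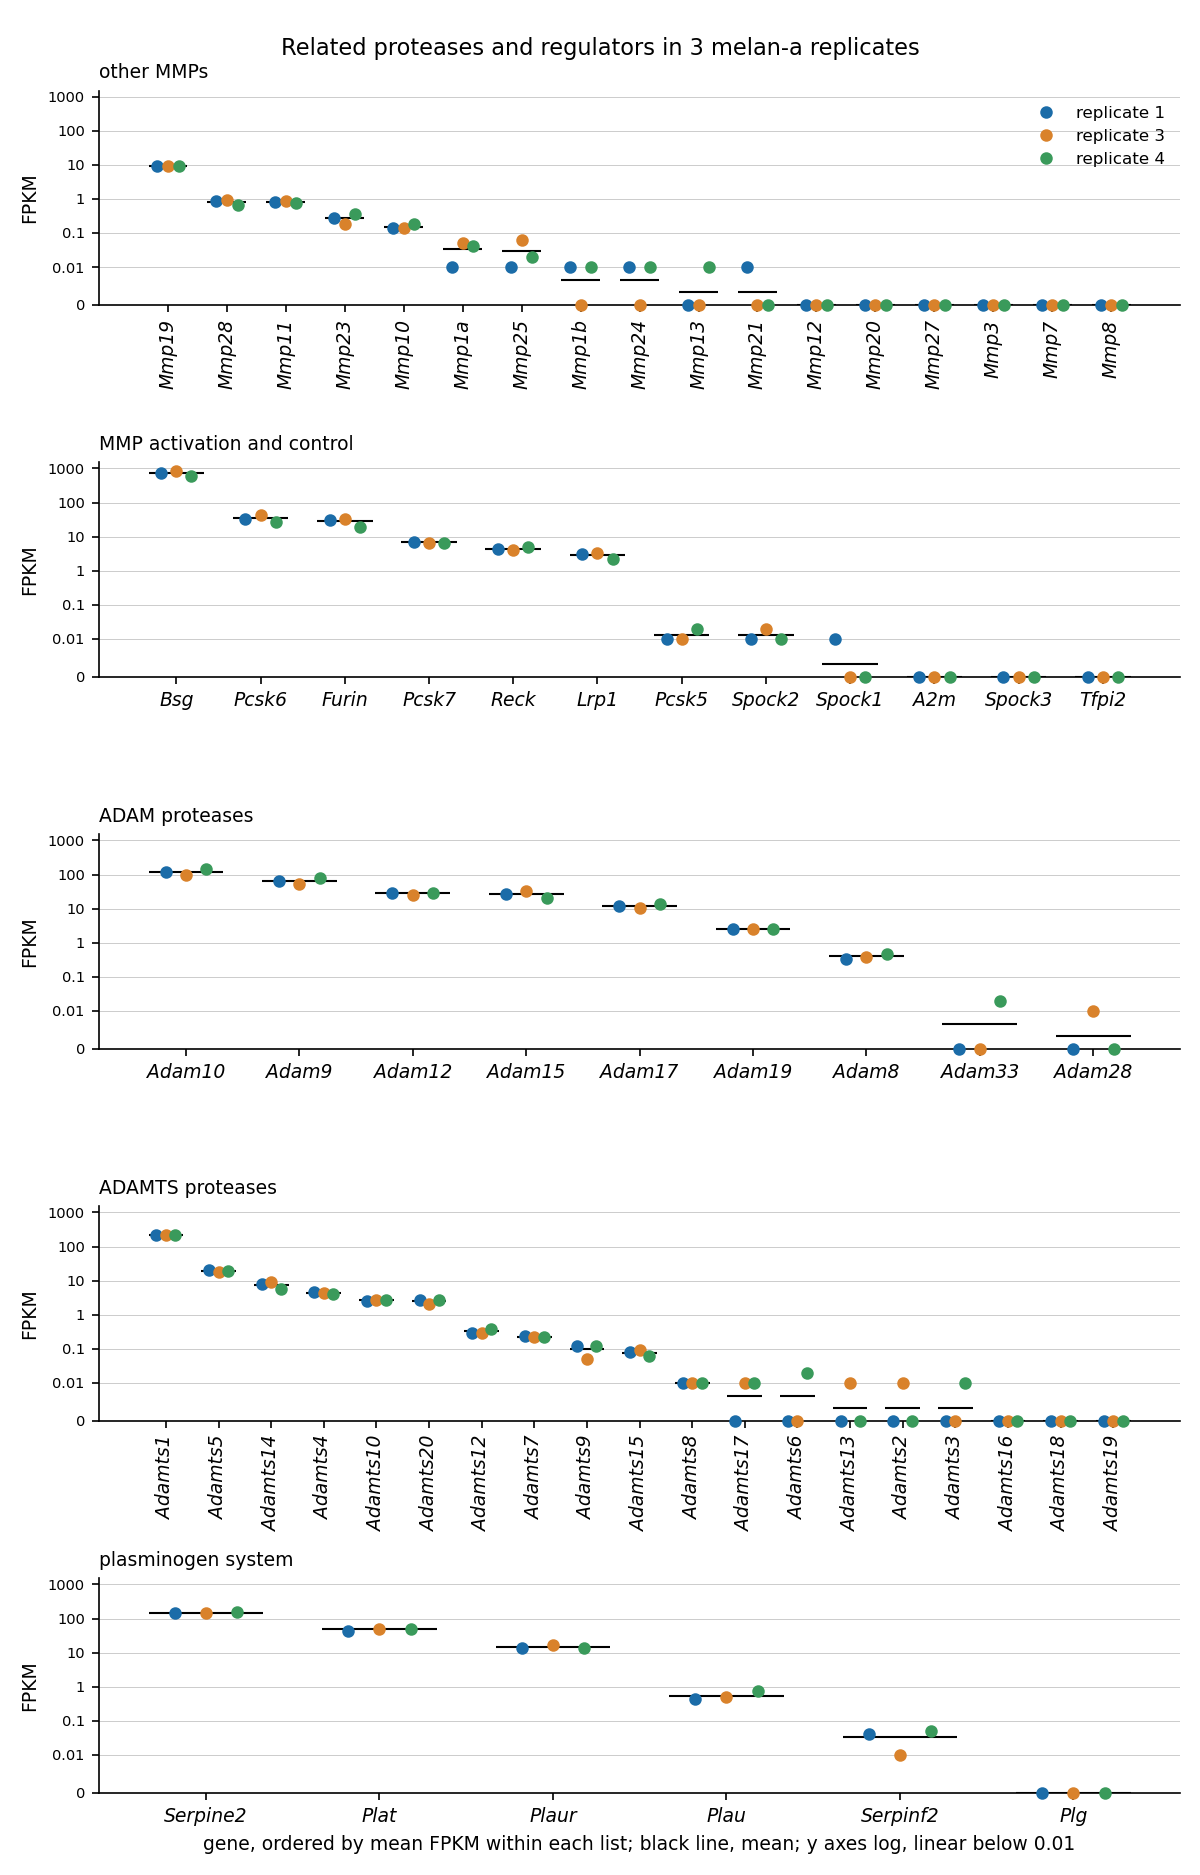
FPKM of 5 lists of related genes in replicates 1, 3 and 4 (points) with the mean (black line), on log axes that are linear below 0.01. No list has more than 5 genes above 10 FPKM, and *Mmp19* is the only one of the 17 other MMP genes above 1 FPKM.

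Fibroblasts are a known source of several MMPs and TIMPs, and their markers were therefore set beside the set. The 7 fibroblast markers summed to 1.84, 2.03 and 1.70 FPKM in replicates 1, 3 and 4. *Col1a1* made up most of this, with 1.51, 1.77 and 1.33 FPKM, whereas *Col1a2*, *Col3a1*, *Pdgfra*, *Pdgfrb* and *Dcn* were at 0.13 FPKM or below and *Lum* was at 0. The 6 keratinocyte markers summed to 0.36 to 0.70 FPKM, of which *Krt10* was the highest, with *Krt1*, *Dsg3* and *Trp63* at 0. The 4 endothelial markers summed to 0.03 FPKM or less, led by *Kdr*, and *Tek* was at 0. The 5 leukocyte markers summed to 0.78 to 1.61 FPKM, nearly all from *Cd68*, with *Ptprc*, *Itgam* and *Cd3e* at 0. Each of the 6 abundant genes of the set was at least 56.34 FPKM in libraries in which the markers of these other cell types were at 1.77 FPKM or below. Whether other cells contributed to the MMP and TIMP transcripts was not tested.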

How the data were processed

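RNA-seq values of 3 melan-a replicates were used. Per the paper's methods and the submitters' processing notes, the authors made stranded mRNA libraries, sequenced 3 lanes per replicate, trimmed 10 bases, aligned reads to mm9 (STAR 2.3.0e), removed rRNA reads, counted reads with HTSeq 0.5.3p3 on Ensembl release 67, and deposited FPKM with TMM scaling (trimmed mean of M values), rounded to 2 decimals. How counts became FPKM is not given in the sources used here.

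Symbols and exon lengths came from GENCODE for mm9 (Ensembl release 65), which lacks 374 genes of the files. Library sizes were those for which 141 to 184 low, single-transcript genes gave whole reads, with a mean distance from a whole number of 0.055 to 0.082 reads. Among few genes with several transcripts, joined exons came nearer to whole reads than the longest transcript in every replicate, and were taken as the length. The genes differed between the 2 lengths. There were 22, 38 and 9 for joined exons and 47, 71 and 28 for the longest transcript in replicates 1, 3 and 4. The lengths were thus not compared on the same genes. Further lists name the 5 highest genes by mean FPKM and genes overlapping the set, and 1 listed gene is not reported here. The genes and lists were chosen with earlier results of these data known. Protein features, planned at first, were not analysed here. Ratios were tested by exact sign-flip permutation. The code (Python 3.11.15, numpy 2.4.6, pandas 2.3.3, scipy 1.17.1, matplotlib 3.10.9) was tested on simulated data.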

Additional observations from a re-analysis of the deposited data

How the results depend on the processing

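With a replicate left out, no ratio could fall below 1, because each was above 1 in all 3 replicates. The TIMP over MMP sums were then 1.14 to 1.16, and 1.10 to 1.13 with all MMP genes. Ratios of single genes were 1.20 to 1.23 for *Mmp14* over *Mmp2*, 1.62 to 1.77 for *Timp2* over *Mmp14* and 1.98 to 2.19 for *Timp2* over *Mmp2*. Between 11 and 13 MMP genes were then detected and 8 to 9 of 9 neighbouring pairs kept the order of their means, as did 9 after the GC correction and 7 with the length of the longest protein-coding transcript (both chosen after seeing the data). The TIMP ratio, over the 6 and over all 23 MMP genes, was 1.37 and 1.33 with the length of the longest protein-coding transcript, 1.57 and 1.52 from reads not divided by length, 2.66 and 14.9 from means of log2(FPKM + 1) over genes, and 3.09 and 39.3 with a pseudocount of 0.1. The last 4 values weigh each gene equally, including those near 0. Without *Timp2* and *Mmp14* the ratio reversed, to 0.767 and 0.726. From reads not divided by length, *Mmp14* over *Mmp2* was 1.04, *Timp2* over *Mmp14* 2.53 and *Timp2* over *Mmp2* 2.63. At 1 FPKM in every replicate, 5 MMP genes were detected in place of 11. The median over replicates and the GC correction moved no ratio by more than its SD, but neither is a strict check. The median of 3 values cannot lie further than the SD from their mean. The GC correction is centred on the mean of each gene, so it leaves means and their ratios nearly unchanged by design. Of 70 alternative values for the levels of the 10 genes, 59 stayed within the SD of the replicates. The other 11 were 9 after rescaling each replicate to sum to 1000000, which changes the unit, and 2 with the other length (*Timp3* and *Mmp16*). The 59 are no measure of stability, since most of them were bound to stay. With 3 replicates, leaving 1 out or taking the median cannot move a mean by more than the SD, and the GC correction hardly moves it. With the other length, 8 levels stayed within the SD. For *Mmp2*, *Mmp14*, *Mmp15*, *Mmp17* and *Timp4* both lengths are the same, so these levels could not move. No paired analysis was possible because the samples form a single group. Depth limits *Timp4*, *Mmp9* and *Mmp16*.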
